A study of Mus musculus with 34 samples.

Results

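The expression of 10 AP-1 and immediate early genes, Fos, Fosb, Fosl1, Fosl2, Jun, Junb, Jund, Atf3, Egr1 and Ier2, was examined in J1 mESCs after LIF withdrawal with and without Royalactin. The genes were taken by symbol from a deposited table of 23366 genes, and all 10 were in it. J1 is a mouse embryonic stem cell line that needs LIF, the cytokine that keeps these cells undifferentiated in serum. RNA-seq was available for 2 serum/-LIF libraries and for 2 serum/-LIF + Royalactin libraries, the latter grown with Royalactin, a protein of honey bee royal jelly, at 0.5 mg/ml. Both groups were grown on gelatin in serum medium, came from this line alone, and are labelled passage 40, whereas the paper describes an earlier passage. No time point is labelled for the RNA-seq. The series describes its experiments as at least biological duplicates, and the p-values measure only the spread between these 4 libraries. No sample of the series is labelled as serum/+LIF RNA-seq, so that no comparison with it was made.

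AP-1 is a family of dimeric transcription factors built from FOS, JUN and some ATF and MAF proteins, which pair through a leucine zipper and bind a short palindrome in DNA. FOS proteins cannot pair with themselves and need a JUN partner, whereas JUN proteins can form dimers with each other, with FOS or with ATF proteins. Many of these genes are immediate early genes, which are transcribed within minutes of growth factor, stress or adhesion signals without new protein synthesis, and whose mRNAs decay rapidly. In mESCs the ERK pathway, which feeds these genes, is linked to exit from self-renewal.

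The reads assigned to genes numbered 14737796 to 17597818 in the 4 libraries. Rn45s, the precursor of ribosomal RNA, made up 46.6% and 21.6% of them in serum/-LIF (replicates 1 and 2) and 38.4% and 9.08% with Royalactin (replicates 1 and 2). Values are normalized counts, in which 1 read was worth 0.688 to 1.34, and 3 reads, taken as the floor, were worth 2.07 to 4.01. All 10 of the embryonic stem cell markers listed, with Tdgf1 the highest, had enough signal to be tested, with summed normalized counts of 35253 and 38285 in serum/-LIF and of 41689 and 48660 with Royalactin. Of these markers, 3 passed the study's limits described below, all higher with Royalactin, which were Zfp42, Sox2 and Nanog. Zfp42 and Sox2 were also called (limma adjusted p = 0.00371 and 0.0368, Benjamini-Hochberg). By sign, 8 of the 10 were higher with Royalactin and 2 lower. The lower ones, Tdgf1 and Lin28a, had log2 fold changes of -0.45 and -0.19 and did not pass those limits. Of 10 fibroblast markers, Pdgfrb, Postn and S100a4 were at 0 in every library, and the list summed to 69.5 to 164 normalized counts per library.

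None of the 10 genes was called at an adjusted p-value under 0.05 in limma (Benjamini-Hochberg), a limit passed by 0.493% of the 12993 genes tested. Of the 8 genes with enough signal to be tested, Jun and Atf3 passed the limits named in the study's methods, which combine an unadjusted p-value of 0.05 with a 2-fold change. Both were lower with Royalactin. These limits were passed by 7.13% of all tested genes, 3.61% of them lower and 3.52% higher with Royalactin. Fosb and Fosl1 lay under the minimum mean of 10 normalized counts and were not tested. The median log2 fold change of the 8 tested genes was -0.28, beside -0.01 for all tested genes, with 5 of the 8 lower, beside 50.6% of all tested genes. With 2 libraries against 2, an exact permutation test of a single gene cannot go below a two-sided p of 0.333.

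**Figure D1:**
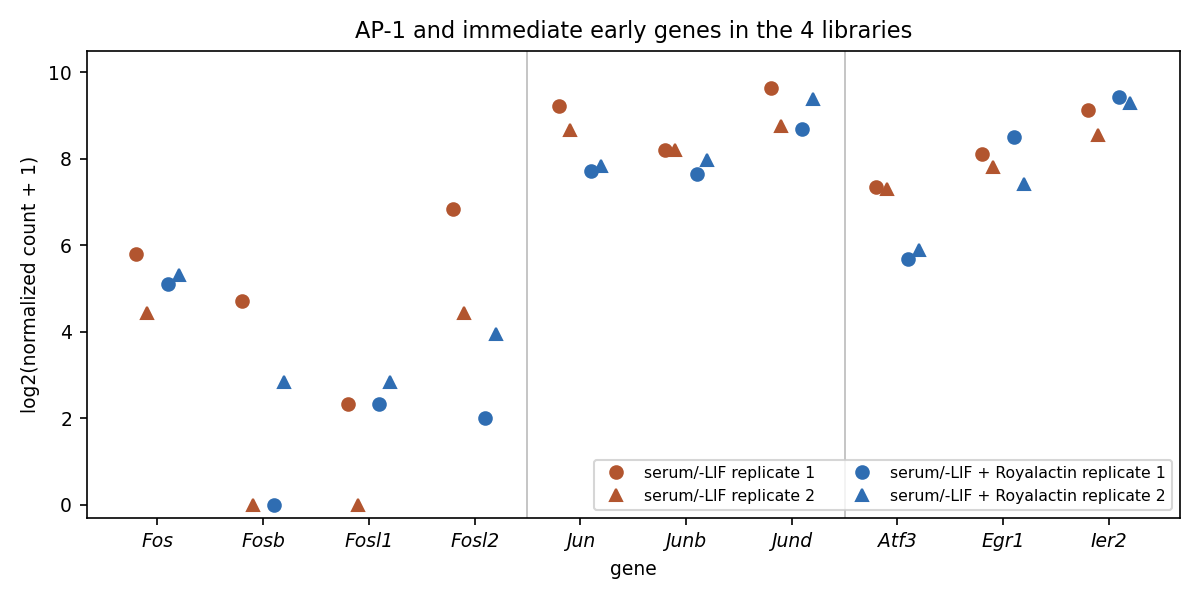
Levels of the 10 genes on a log2(normalized count + 1) scale (vertical axis), by gene and library. Circles are replicate 1 and triangles replicate 2, and vertical lines part the FOS family, the JUN family and the others. For Jun and Atf3 both Royalactin libraries lie under both serum/-LIF libraries, while for Fos and Egr1 the groups overlap.

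Normalized per kb of exon, Ier2 was the highest of the genes, with a mean of 371 normalized counts per kb over the 4 libraries. It was followed by Jund at 200.95, Junb at 143, Jun at 113, Egr1 at 83.5 and Atf3 at 53.8 normalized counts per kb. The FOS family was the lowest, with 15.7 for Fos, 6.48 for Fosl2, 2.11 for Fosb and 2.08 for Fosl1. Neighbours in this order overlapped in their ranges over the 4 libraries, except Atf3 and Fos. The JUN genes were at higher levels per kb than every FOS gene in each library.

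Jun encodes c-Jun, the AP-1 subunit most often studied as an activator and the target of the JNK kinases. Its gene is a single exon on chromosome 4 (94715725 to 94718913 of mm9, minus strand), and it overlaps BC042782 on the opposite strand. Jun was at 595 and 404 normalized counts in serum/-LIF (replicates 1 and 2, an order kept for all values below) and at 211 and 226 with Royalactin. The groups did not overlap, and the Royalactin libraries lay close together. The group means were 499 ± 135 and 219 ± 10.3 (SD, n = 2), which is 2.29-fold higher in serum/-LIF. The log2 fold change was -1.16 (standard error 0.38, 95% interval -1.98 to -0.34), with a limma p of 0.00891 before and 0.297 after Benjamini-Hochberg adjustment. Jun was not past the study's limits without serum/-LIF replicate 1, where its log2 fold change was -0.88, nor without Royalactin replicate 1 (-1.11) or replicate 2 (-1.21).

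Atf3 encodes a stress-induced bZIP factor that pairs with JUN proteins and often acts as a repressor. It has 4 exon blocks on chromosome 1 (192994175 to 193007219 of mm9, minus strand). Atf3 was at 162 and 156 normalized counts in serum/-LIF and at 50.3 and 58.5 with Royalactin. Replicates of both groups were close and the groups were far apart. The means were 159 ± 3.91 and 54.4 ± 5.81 (SD, n = 2), 2.92-fold higher in serum/-LIF. The log2 fold change was -1.53 (standard error 0.55, 95% interval -2.73 to -0.34), with a limma p of 0.0154 before and 0.375 after Benjamini-Hochberg adjustment. These values rest on 50 to 151 reads per library. Without Royalactin replicate 1 the log2 fold change was -1.43, and without replicate 2 it was -1.64, neither past the study's limits. The ratio of Atf3 to Jun per kb was 0.437 and 0.622 in serum/-LIF and 0.383 and 0.417 with Royalactin.

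The promoters of Jun and Atf3 are shown because these genes passed the study's limits, and that of Fos because it is the best known immediate early promoter and its level was within the replicate spread. RefSeq start sites (GRCm38.p6) were found for 7 of the 10 genes, and the 250 bases before the start are printed 5′ to 3′ on the gene's strand. Capitals mark matches on either strand to the GC box GGGCGG, the TATA box TATAAA, the first bases of the cAMP response element TGACGT, and TGANNTCA. The last is an 8-base pattern with the outer letters of the cAMP response element and 2 free centre bases. A match to it need not be a palindrome or an AP-1 site. The Jun window is chr4:95052223-95052472 (minus strand), the Atf3 window chr1:191183334-191183583 (minus strand) and the Fos window chr12:85473640-85473889 (plus strand).
Jun: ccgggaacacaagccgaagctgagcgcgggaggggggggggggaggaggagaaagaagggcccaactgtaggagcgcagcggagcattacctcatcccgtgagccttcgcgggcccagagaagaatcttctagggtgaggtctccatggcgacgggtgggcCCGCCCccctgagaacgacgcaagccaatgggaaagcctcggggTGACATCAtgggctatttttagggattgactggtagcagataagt
Atf3: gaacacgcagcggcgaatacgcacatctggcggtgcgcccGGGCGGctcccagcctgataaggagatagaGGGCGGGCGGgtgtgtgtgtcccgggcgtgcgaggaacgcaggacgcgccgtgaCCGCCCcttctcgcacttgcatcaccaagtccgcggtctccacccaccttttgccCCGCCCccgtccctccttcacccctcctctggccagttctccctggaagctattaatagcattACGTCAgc
Fos: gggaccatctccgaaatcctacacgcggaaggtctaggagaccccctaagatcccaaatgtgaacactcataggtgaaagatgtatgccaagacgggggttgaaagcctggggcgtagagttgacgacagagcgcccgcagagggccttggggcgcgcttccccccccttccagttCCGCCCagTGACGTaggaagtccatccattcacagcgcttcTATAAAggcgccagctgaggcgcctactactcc

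The Jun window held 1 match to TGANNTCA, read as TGACATCA, from 45 to 38 bases before the start, and 1 GC box. TGANNTCA also matched the Jund window, from 61 to 54 bases before the start, and 11.9% of the 32851 promoter windows of this length. The Atf3 window held TGACGT on the minus strand, 8 to 3 bases before the start, and 5 GC boxes, of which 2 overlap. The Fos window held TGACGT from 66 to 61 and the TATA box from 33 to 28 bases before the start. TGACGT was found in 6.47% of all windows, the TATA box in 12.4% and the GC box in 32.7%, against 5 of the 7 windows of these genes for the GC box. The planned motifs TGANTCA, which is the TPA response element that AP-1 binds, the whole cAMP response element TGACGTCA and the CArG box bound by SRF matched none of the 7 windows and 6.75%, 1.55% and 1.47% of all windows. These matches are descriptions of the letters in this window. Only the 250 bases before the start were searched, and Fosl1, Egr1 and Ier2 had no window. A motif without a match here can still lie elsewhere near these genes.

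**Figure D2:**
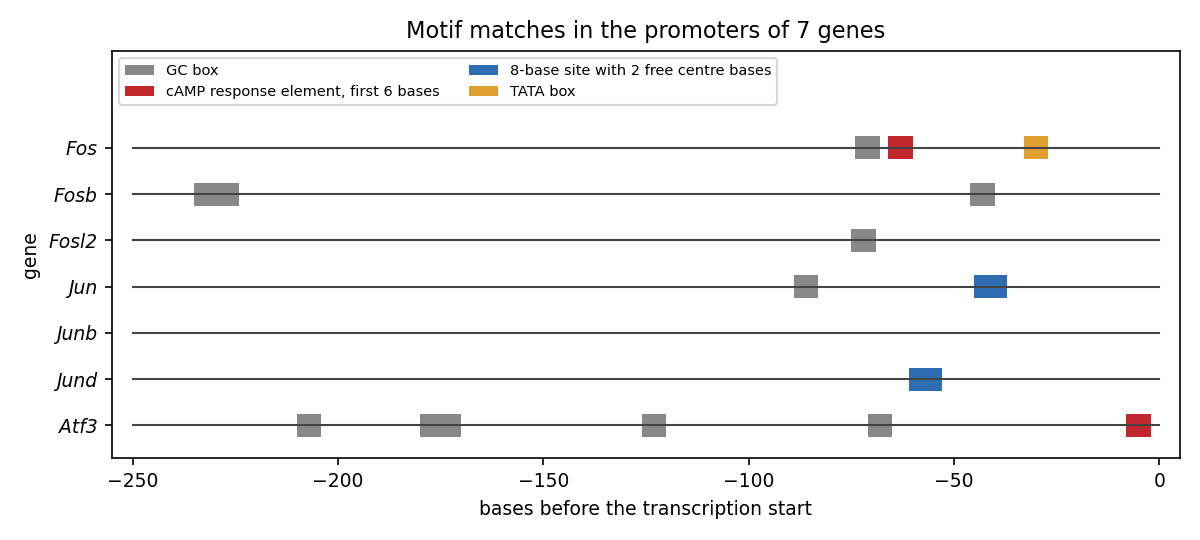
Motif matches in the 250 bases before the transcription start (horizontal axis, bases) for the 7 genes with a RefSeq promoter, coloured by motif. Jun and Jund hold a match to the 8-base pattern TGANNTCA, and Atf3 and Fos hold the first 6 bases of the cAMP response element. Junb holds none of the motifs drawn.

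Neither of the other JUN genes passed the study's limits. Junb encodes a JUN protein that is often a weaker activator than c-Jun. Its normalized counts were 296 and 293 in serum/-LIF and 199 and 248 with Royalactin, so that the groups did not overlap. The groups had means of 294 ± 1.86 and 224 ± 34.9 (SD, n = 2), a log2 fold change of -0.40 (95% interval -1.25 to 0.45) and a limma adjusted p of 0.813 (Benjamini-Hochberg). Jund, the JUN gene known for steady expression in resting cells, had 802 and 430 normalized counts in serum/-LIF and 414 and 667 with Royalactin, and the groups overlapped. Its exon overlaps Gm11175 on the opposite strand. Its log2 fold change was -0.16 (95% interval -1.0 to 0.68, limma adjusted p = 0.934, Benjamini-Hochberg). Per kb, the ratio of Jun to Junb was 1.14 and 0.781 in serum/-LIF and 0.601 and 0.515 with Royalactin. The ratio of Jun to Jund was 0.669 and 0.848 in serum/-LIF and 0.460 and 0.305 with Royalactin. Both ratios were lower in each Royalactin library than in each serum/-LIF library. Jun, the numerator of both, was itself lower in each, so the ratios are not separate evidence. Whether the JUN genes differed in response was not tested.

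In the FOS family, the reads were few and uneven. Fos, the founding member of the family, had 54.8 and 20.7 normalized counts in serum/-LIF and 33.2 and 38.5 with Royalactin. Both Royalactin values lay between those of serum/-LIF, with a log2 fold change of 0.08 and a wide 95% interval of -1.80 to 1.96 (limma adjusted p = 0.987, Benjamini-Hochberg). With 20 to 56 reads per library, a 2-fold change in either direction lies within this interval.

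Fosl2 encodes Fra-2, a FOS protein without the strong activation domain of c-Fos. It was at 114 and 20.7 normalized counts in serum/-LIF and at 3.02 and 14.5 with Royalactin, from 85, 20, 3 and 21 reads. The groups did not overlap, but the serum/-LIF replicates differed 5.49-fold. The log2 fold change was -2.66, the largest of the 8 tested genes, with a standard error of 1.25 and a 95% interval of -5.35 to 0.02. It missed the study's limits with a limma p of 0.0518 before and 0.542 after Benjamini-Hochberg adjustment. Without serum/-LIF replicate 1 the log2 fold change was -1.46, and without serum/-LIF replicate 2 it was -3.86 and past those limits (limma adjusted p = 0.503, Benjamini-Hochberg).

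Fosb and Fosl1, the genes for FosB and Fra-1, were close to the floor. Fosb had 19 and 0 reads in serum/-LIF and 0 and 9 reads with Royalactin, so that each group had a library without a read. Fosl1 had 3 and 0 reads in serum/-LIF and 4 and 9 reads with Royalactin. No fold is given for these genes, and a difference was not detectable at this depth. Exons of Fosl1 overlap those of Ccdc85b on the opposite strand in the annotation used here, and it is not stated whether reads were counted by strand.

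Egr1 and Ier2 are immediate early genes outside AP-1. Egr1, a zinc finger factor and a classical readout of ERK signalling, had 277 and 224 normalized counts in serum/-LIF and 364 and 171 with Royalactin, and it overlaps Gm17507 on the opposite strand. The Royalactin replicates were the highest and the lowest of the 4 libraries, and the log2 fold change was 0.01 (95% interval -0.96 to 0.97, limma adjusted p = 0.998, Benjamini-Hochberg). Ier2, a short single-exon gene for a nuclear protein, was the only tested gene of the 10 that was higher in both Royalactin libraries. It had 560 and 376 normalized counts in serum/-LIF and 693 and 628 with Royalactin, 1.41-fold higher in mean. Its log2 fold change of 0.52 had a 95% interval of -0.22 to 1.26 (limma adjusted p = 0.693, Benjamini-Hochberg). The difference in response between Ier2 and Jun was not tested.

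**Figure D3:**
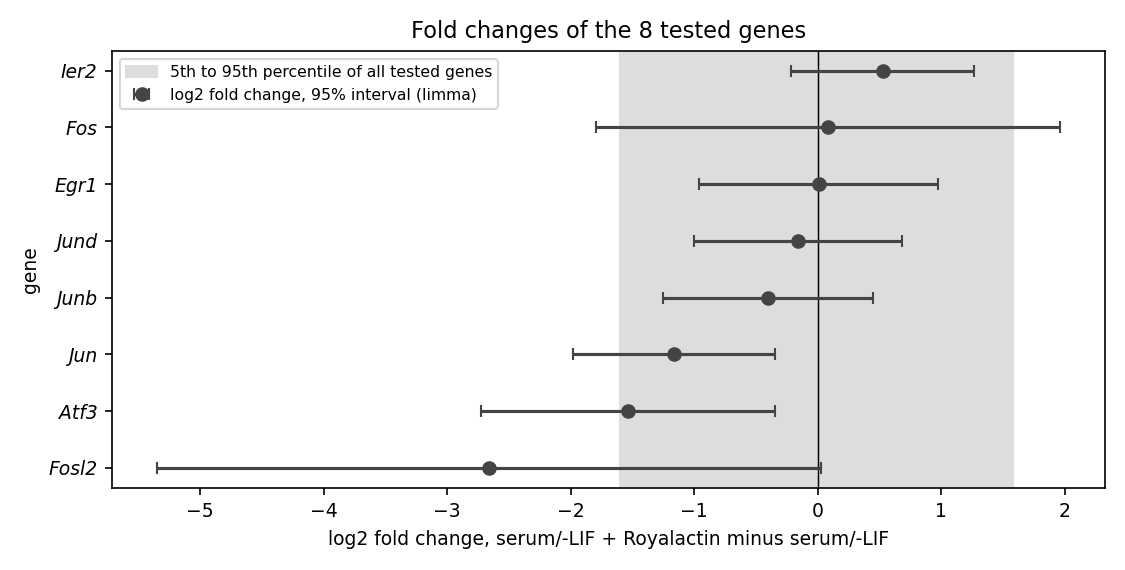
Log2 fold change (serum/-LIF + Royalactin minus serum/-LIF, horizontal axis) of the 8 tested genes with 95% intervals from limma, n = 2 per group. The grey band spans the 5th to 95th percentile of all 12993 tested genes (-1.60 to 1.58). Only Fosl2 lies outside the band, and only the intervals of Jun and Atf3 do not reach 0.

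Across the 8 tested genes, the groups did not overlap for 5, which were Fosl2, Jun, Junb and Atf3 on the lower side and Ier2 on the higher side. Of all tested genes, 38.6% did not overlap, 18.9% lower and 19.7% higher with Royalactin. Part of the spread ran between the serum/-LIF libraries. All 8 tested genes were higher in serum/-LIF replicate 1 than in replicate 2, while 51.4% of all tested genes were. Fosb and Fosl1, close to the floor, were also higher there, with 19 and 3 reads against 0. The median signed difference, replicate 1 minus replicate 2, was 0.57 on the log2 scale for the 8 tested genes and 0.03 for all tested genes. Without regard to sign, the median difference over all tested genes was also 0.57. The shared direction, and not the size, thus set the 8 genes apart. In serum/-LIF + Royalactin, 2 of the 8 tested genes, Egr1 and Ier2, were higher in replicate 1, against 49.8% of all tested genes. Serum/-LIF replicate 1 was also the library with the largest share of Rn45s reads and the fewest reads without it, 7878527. The part of these properties in the values was not tested.

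**Figure D4:**
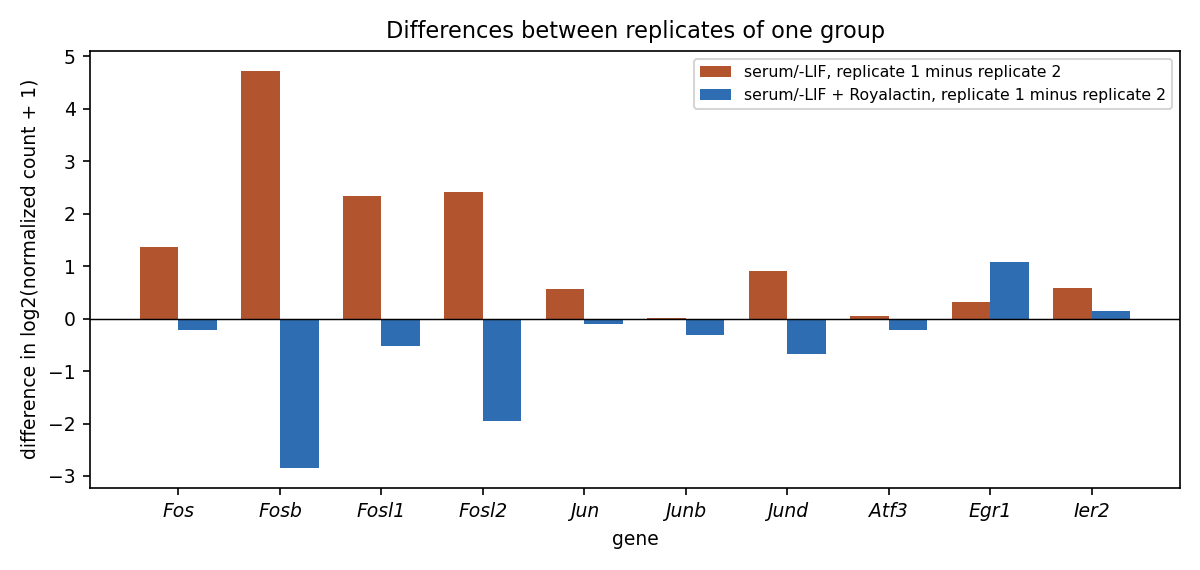
Difference between replicate 1 and replicate 2 in log2(normalized count + 1) (vertical axis) within each group, for the 10 genes. Every serum/-LIF bar is above 0, the smallest being 0.01 for Junb, whereas 8 of the 10 Royalactin bars are below 0. The bars of Fosb and Fosl1 rest on 0 to 19 reads per library, close to the floor, and their heights are not read.

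The dimer partners of FOS and JUN were listed in the same way. Of 14 other bZIP genes listed, 11 were tested, 8 had a log2 fold change under 0 and the median was -0.43. None was called, and 1 of the 11, Maff, passed the study's limits, which 7.13% of all tested genes passed. Maff, a small MAF protein without an activation domain, was at 146 and 93.2 normalized counts in serum/-LIF and at 21.1 and 46.1 with Royalactin, which gave -1.86 on the log2 scale with a standard error of 0.70 (limma adjusted p = 0.392, Benjamini-Hochberg). Past the limits, the lower count was 0 without Royalactin replicate 1, so that Maff was then lost, and 2 without Royalactin replicate 2, and 1 gene was higher without serum/-LIF replicate 2.

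Among 52 other immediate early genes, which were listed from general knowledge, 43 were tested. Egr3, Egr4, Cxcl1, Areg and Il6 had no reads in any library. The median log2 fold change of the tested genes was -0.35 and 27 of the 43 were under 0. At an adjusted p under 0.05, 2 genes were called, both lower with Royalactin. Thbs1, for the matrix protein thrombospondin, fell from 1487 and 706 normalized counts in serum/-LIF to 129 and 70.9 with Royalactin (log2 fold change -3.41, limma adjusted p = 0.00371, Benjamini-Hochberg). Cyr61, for a secreted matricellular protein, fell from 1789 and 1356 normalized counts to 143 and 234 (log2 fold change -3.08, limma adjusted p = 0.00273, Benjamini-Hochberg). With any 1 of the 4 libraries left out, no gene of the whole table was called, these included.

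By the study's limits, 7 of these 43 genes were lower and 5 higher with Royalactin, beside 3.61% and 3.52% of all tested genes. The higher count was 1 without Royalactin replicate 1 and 2 without Royalactin replicate 2, while the lower count was 5 to 8 with any library left out. The lower genes were Klf6, Dusp2, Dusp6, Gadd45b and Edn1 besides Thbs1 and Cyr61, and the higher ones were Sgk1, Plk3, Nfkbia, Socs3 and Spry4. Apart from Spry4, Thbs1 and Cyr61, these were named after their values were seen. Dusp6, the cytoplasmic phosphatase that switches off ERK, was at 2524 and 2611 normalized counts in serum/-LIF and at 1176 and 1141 with Royalactin (limma adjusted p = 0.132, Benjamini-Hochberg). Klf6, a zinc finger factor, was at 1506 and 1799 in serum/-LIF and at 674 and 680 with Royalactin (limma adjusted p = 0.105, Benjamini-Hochberg). Spry4, another inhibitor of receptor signalling, had the largest difference in the higher direction. It was at 340 and 23.8 normalized counts in serum/-LIF and at 857 and 542 with Royalactin, a log2 fold change of 2.89 with a standard error of 0.84 (limma adjusted p = 0.21, Benjamini-Hochberg). Its serum/-LIF replicates were far apart, with replicate 1 the higher as for the AP-1 genes. Past the study's limits, this list held genes in both directions.

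**Figure D5:**
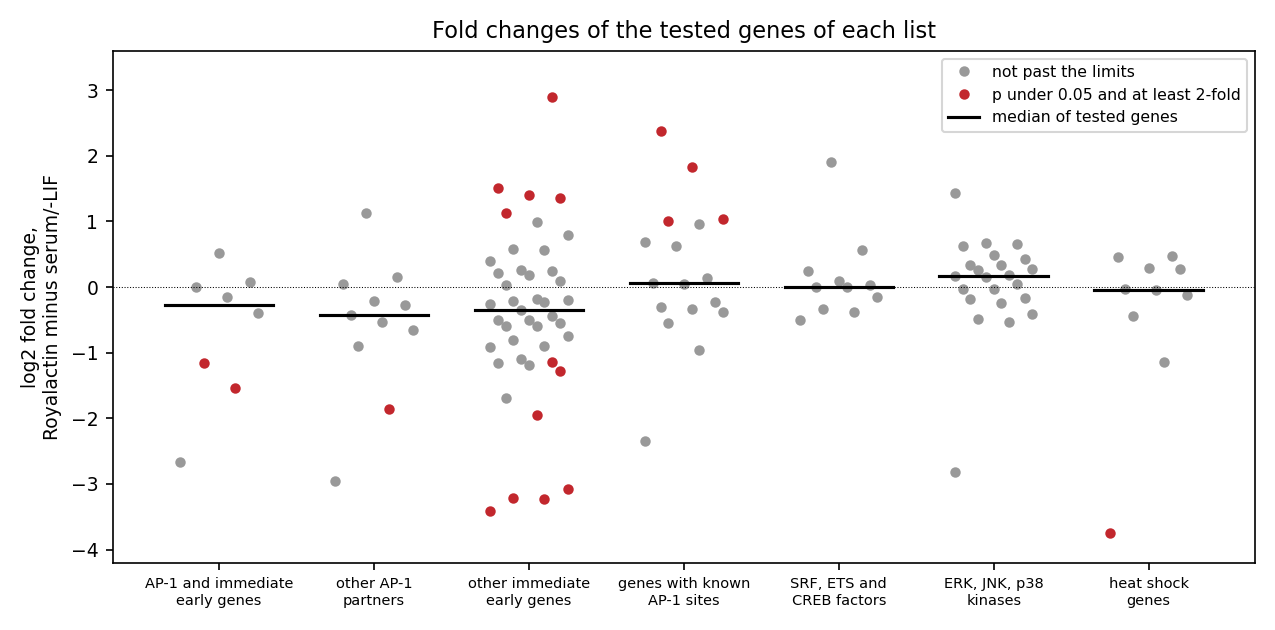
Log2 fold change (serum/-LIF + Royalactin minus serum/-LIF, vertical axis) of the tested genes of 7 gene lists, 1 point per gene, with the median of each list as a bar. Red points have an unadjusted limma p under 0.05 and at least a 2-fold change. The other immediate early genes hold 7 red points below 0 and 5 above, and the kinases and the SRF, ETS and CREB factors hold none.

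Of 23 genes that carry well known AP-1 sites, 17 were tested, with a median log2 fold change of 0.07. Mmp1a, Mmp3, Mmp10, Krt5 and Krt14 had no reads. Only Spp1, for the secreted phosphoprotein osteopontin, was called. It rose from 844 and 1095 normalized counts in serum/-LIF to 3438 and 3391 with Royalactin (log2 fold change 1.83, limma adjusted p = 0.0132, Benjamini-Hochberg). The study's limits were passed by 4 of the 17 tested genes, all higher, beside 3.52% of all tested genes. Among the 4 were Mt1 and Mt2 besides Spp1. Without Royalactin replicate 2 the count was 2 higher and 1 lower, and without serum/-LIF replicate 1 it was 3 higher and 1 lower. Mt1 and Mt2, the metallothionein genes, were named after their values were seen.

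The factors and kinases upstream of the immediate early promoters gave no call. None of 11 tested genes for SRF, its ETS and MRTF partners and the CREB group, and none of 23 kinases of the ERK, JNK and p38 modules, passed the study's limits. Without serum/-LIF replicate 1, 1 gene of each list passed them, higher with Royalactin. Their median log2 fold changes were 0.01 and 0.17. The largest differences in each list were in weakly expressed genes. Elk3, a partner of SRF, had 8.02 and 3.11 normalized counts in serum/-LIF and 30.2 and 15.8 with Royalactin, with a log2 fold change of 1.91 and a 95% interval of -1.20 to 5.02. Mapk10, for JNK3, had 16.0 and 19.7 normalized counts in serum/-LIF and 6.04 and 0 with Royalactin, with a log2 fold change of -2.82 and a 95% interval of -6.97 to 1.32.

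Heat shock genes, which are also induced by handling of cells, gave a median log2 fold change of -0.04 over 10 tested genes. None was called, and 1 of the 10, Hspa1a, passed the study's limits, beside 7.13% of all tested genes. Hspa1a had 32.1 and 34.2 normalized counts in serum/-LIF and 0 and 5.51 with Royalactin. Hspa1a did not pass them without serum/-LIF replicate 1, without Royalactin replicate 1 or in edgeR on the recovered reads. Summed markers of some other cell types differed between the conditions. The 9 mesoderm and muscle markers summed to 2970 and 3388 normalized counts in serum/-LIF and to 398 and 529 with Royalactin, led by Tagln, and 4 of the 7 tested passed the study's limits, all lower. These 4 were the smooth muscle genes Tagln, Cnn1, Acta2 and Myl9, of which Tagln and Cnn1 were called (limma adjusted p = 0.00184 and 0.021, Benjamini-Hochberg). The tested mesoderm genes T, Mixl1 and Kdr did not pass the limits, and Kdr had 1.34 and 0 normalized counts in serum/-LIF and 31.2 and 21.3 with Royalactin. The 8 trophoblast markers summed to 1801 and 1841 in serum/-LIF and to 556 and 935 with Royalactin, led by Krt8. Elf5 was at 0 in every library. By these limits 2 genes, the keratin genes Krt8 and Krt18, were lower, and both were called (limma adjusted p = 0.040 and 0.0336, Benjamini-Hochberg). The 1 higher gene was Tfap2c, at 37.4 and 104 normalized counts in serum/-LIF and 214 and 310 with Royalactin. The 8 neural markers, led by Tubb3 and with Neurog2 at 0, summed to 659 and 638 in serum/-LIF and to 876 and 1029 with Royalactin, and none of 5 tested passed the limits. The 10 primitive endoderm markers, led by Col4a1, summed to 3696 and 2021 in serum/-LIF and to 2519 and 2104 with Royalactin, also with none past the limits. Among the fibroblast markers, led by Thy1, 3 were tested and 1, Dcn, was lower by these limits, with no read in either Royalactin library. Their part in the values of Jun, Atf3 and the other genes was not tested. In these bulk libraries fewer cells of a type and less RNA per cell cannot be told apart.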

How the data were processed

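RNA-seq of J1 mESCs was used, with 2 libraries per condition assigned from the sample titles. Alignment by the authors was to mm9 (TopHat), genes were counted with HTSeq-count and scaled with DESeq, and they deposited a signal, the normalized count, per gene and library. The strand setting and annotation for counting are not given in the sources used here. Dividing by 1 step per library gave whole reads for 100% of the values (tolerance 0.01 of a read), with the step of serum/-LIF + Royalactin replicate 1 at 1.01, near 1. No value column was left unmapped.

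Differences were tested over all genes with a mean of at least 10 normalized counts with limma 3.58.1 (R 4.3.3) on log2(normalized count + 1), two-sided, with a variance trend and Benjamini-Hochberg adjustment, a scale that understates changes of weakly expressed genes. A gene was called at an adjusted p under 0.05, and the unadjusted p of 0.05 with 2-fold of the study's methods was the second rule. Alternatives were other pseudocounts, minimum means and scalings, the replicate block, limma without the trend and each library left out. Added after seeing the data were edgeR 4.0.16 on the recovered reads and a correction for exon GC content and length by lowess (span 0.3). The limma fit was also run on simulated counts, whose outcome is not given here and is not used to judge the calls. All 10 genes are named. From other lists, called genes and the largest rise and fall past the study's limits are named, or else the largest difference. The result of 1 gene that this rule names is not reported here. The genes and lists were chosen with earlier results of these data known.

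Exon lengths and positions come from GENCODE M1 (mm9), with a length for 90.0% of symbols. Promoters come from RefSeq (GRCm38.p6). TGACGT and TGANNTCA were added after the sequences were seen. Floors cover counting error only. Protein sequences and ATAC-seq samples were not analysed here.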

Additional observations from a re-analysis of the deposited data

How the results depend on the processing

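None of the 10 genes was called at an adjusted p under 0.05 in limma (Benjamini-Hochberg) under any alternative but 1. With the replicate block and the correction for GC content and exon length together, 1 gene, Jun, was called (adjusted p = 0.00583), and its adjusted p over all alternatives ran up to 1. The cause was not tested. With the replicate block alone no gene was called (0), 3 passed the study's limits (Fosl2 besides Jun and Atf3), and the adjusted p of Jun was 0.0729. Same-numbered replicates had a correlation of deviations of 0.0851 across genes. With 2 pairs this value cannot show whether they share more than a number, and pairing was not tested. The share of Rn45s reads was larger in replicate 1 than in replicate 2, in serum/-LIF (46.6%, 21.6%) and with Royalactin (38.4%, 9.08%). The block changed calls over all genes from 64 to 391. Over all genes there were also 32 calls with a pseudocount of 0.1, 34 without the minimum mean, 99 with a minimum mean of 50, 244 with the correction for GC content and exon length and 782 with it and the replicate block. There were 0 calls without the trend in limma (1135 genes at an unadjusted p under 0.05) and 0 with any library left out (428 to 2496). At an unadjusted p under 0.05 there were 2 of the 10 genes in limma, and edgeR on the recovered reads called 49 genes in all and 0 of these 10. With each library left out, the number past the study's limits ran from 0 to 3 (0 without either Royalactin library, 1 without serum/-LIF replicate 1, 3 without serum/-LIF replicate 2) and the median log2 fold change from -0.61 (without serum/-LIF replicate 2) to -0.12 (without serum/-LIF replicate 1). In these fits the lone library is assumed to vary like the other group. Jun, Junb, Atf3, Fosl2 and Ier2 kept their direction under every alternative in which they were tested. The sign turned for Fos (-0.0625) in edgeR, and for Egr1 (-0.0384) with the correction for GC content and exon length, alone and with the replicate block. With each library left out Fos ran from -0.60 to 0.76, Egr1 from -0.53 to 0.55 and Jund from -0.61 to 0.29. In limma without the trend, 3 of the other immediate early genes were higher past the study's limits in place of 5, and 2 of the other AP-1 partners were lower in place of 1, as also without the minimum mean, where 1 gene with AP-1 sites was lower in place of 0. Hspa1a was not past those limits in 6 of 15 alternatives, among them the pseudocount of 0.1 and the minimum mean of 50, which it did not reach. In limma without the trend, 1 upstream factor was higher, and 1 upstream kinase was higher and 1 lower, in place of 0. Depth limits Fos, Fosl2, Fosb and Fosl1.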
